A study of Mus musculus with 12 samples.

Results

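Oxidative phosphorylation genes were followed in wounded skin of diabetic mice, with the mRNAs made from the mitochondrial chromosome set against those made from nuclear genes. Members were all genes of the deposited table whose symbol began with mt-Nd, mt-Co, mt-Cytb or mt-Atp, or with Ndufa, Ndufb, Ndufc, Ndufs, Ndufv, Uqcr, Cox4, Cox5, Cox6, Cox7, Cox8 or Atp5, leaving out symbols with -ps and genes with a summed count under 15 over the 12 libraries. This gave 100 genes of 29956, of which 13 were mitochondrially and 87 nuclear encoded. The table held 104 genes with these prefixes; the 3 pseudogenes Atp5l-ps1, Atp5l-ps2 and Atp5l2-ps were left out by name and Cox8c, a testis isoform, by its summed count of 0.

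RNA was taken on day 3 from the backs of B6.BKS(D)-Leprdb/db animals, whose leptin receptor does not work and which become obese and diabetic. Full-thickness punch wounds had received Alcaligenes faecalis in phosphate-buffered saline, Staphylococcus aureus in phosphate-buffered saline, or a vehicle of phosphate-buffered saline with glycerol, and there were 4 mice in each group. All 3 groups share the genotype, the wound and the day, so there is no lean, unwounded or later tissue among them. As described, glycerol was part of the vehicle alone, so the bacteria and the glycerol cannot be told apart in comparisons with vehicle. Whole pieces of skin were used, in which fewer cells of a type and less RNA per cell cannot be told apart.

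The respiratory chain passes electrons from NADH through complex I (NADH dehydrogenase), complex III (cytochrome bc1) and complex IV (cytochrome c oxidase) to oxygen, and complex V (ATP synthase) uses the proton gradient that results to make ATP. These complexes mix subunits of both genomes: the mitochondrial chromosome encodes hydrophobic core subunits and is transcribed as long RNAs that are cut into single mRNAs, while all other subunits are made in the cytosol from nuclear genes and imported. Complex II, which feeds in electrons from succinate, is wholly nuclear encoded. In skin, keratinocytes and fibroblasts depend much on glycolysis, whereas fat and muscle below the dermis are richer in mitochondria.

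By complex, the mitochondrial members were 7 subunits of complex I, 1 of complex III, 3 of complex IV and 2 of complex V. The nuclear members were 43 of complex I, 8 of complex III, 19 of complex IV and 17 of complex V. Ndufa4, first described in complex I, was placed in complex IV as it is now. Because the choice was made by name, 10 nuclear members are assembly factors or otherwise no subunit: Ndufaf1 to Ndufaf7, which help build complex I, the supercomplex factor Cox7a2l, and Atp5s and Atp5sl. A further 7 are isoforms or paralogs of complex IV subunits that are confined to certain tissues or conditions, such as the muscle forms Cox6a2, Cox7a1 and Cox8b.

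Libraries held 38.4 to 71.3 M (mega) estimated counts. Levels are CPM, counts per M of library size after scaling by trimmed mean of M-values (TMM). The 13 mitochondrial mRNAs took 1.56% to 2.22% of a library's counts and the 87 nuclear ones 0.404% to 0.612%. Vehicle replicate 3 stood apart from the other vehicle libraries. It had the highest mitochondrial and the highest nuclear sum of all 12 libraries, and the summed level of 12 adipocyte markers was 16893 CPM in it, against 3908 to 5094 CPM in the other 3 vehicle libraries. Markers of skin were present in every library: the basal keratinocyte keratins Krt5 and Krt14 were at 151 to 549 CPM and 272 to 1439 CPM.

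The mitochondrial mRNAs differed widely from each other in level. On a scale of CPM per kb of transcript, averaged over the 12 libraries, mt-Co1 (the catalytic subunit of cytochrome c oxidase) stood highest at 5682, followed by mt-Atp6 (the proton channel subunit of ATP synthase) at 2262, mt-Nd1 at 1487, mt-Co3 at 1412 and mt-Atp8 at 1280. The lowest were mt-Nd6 at 339, the only mRNA encoded on the other strand, and mt-Co2, which carries the copper centre that takes electrons from cytochrome c, at 256.

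The low place of mt-Co2 went with a nuclear copy. Stretches of mitochondrial DNA have been copied into the nuclear chromosomes, and kallisto divides reads that match several transcripts equally well among them. Compared with GENCODE M21 transcripts (build GRCm38), 43 pseudogenes in the table matched 27 members over at least 100 bases at 95% identity or more, 11 of them near 9 mitochondrial members. For mt-Co2, the pseudogene Gm28661 on chromosome 1 was identical over 681 of 684 bases and held 1099542 estimated counts over the 12 libraries, against 114683 for mt-Co2 itself, or 90.56% of the counts of both. A second copy, Gm13341 on chromosome 2, was 95.9% identical and held 434 counts. The first 120 bases of the 3 transcripts are shown because they carry the reason for this uncertainty, with capitals marking bases that differ from mt-Co2 (chrM:7013-7132, plus strand; Gm28661, chr1:24615446-24615565, minus strand; Gm13341, chr2:22587843-22587962, minus strand).
mt-Co2: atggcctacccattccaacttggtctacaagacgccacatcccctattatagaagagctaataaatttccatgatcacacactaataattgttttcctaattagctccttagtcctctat
Gm28661: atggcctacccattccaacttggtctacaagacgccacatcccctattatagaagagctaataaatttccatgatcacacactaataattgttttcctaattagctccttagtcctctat
Gm13341: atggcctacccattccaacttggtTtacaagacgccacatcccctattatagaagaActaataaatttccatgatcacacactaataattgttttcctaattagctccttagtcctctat
Gm28661 had 0 differing bases in this stretch and Gm13341 had 2.

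The same held to a smaller extent for 4 other mitochondrial members, each with a copy in the same stretch of chromosome 1. Gm28437 held 64.66% of the counts of mt-Co3 and its copy together, Gm28438 held 19.61% for mt-Nd3, Gm10925 held 17.77% for mt-Atp6 and Gm29216 held 10.8% for mt-Co1. With the counts of these copies added, the order per kb became mt-Co1 (6378), mt-Co3 (4025), mt-Atp6 (2757) and mt-Co2 (2738), well above mt-Nd1 (1487) and the other complex I mRNAs. The values of these 5 genes in the deposited table are therefore uncertain as levels, and fold changes that the copies moved by over 1.5 times or turned in sign are given with the copies as well. Not every identical copy held counts. Gm10222, identical to mt-Nd4l over 294 of 297 bases, and Gm28439, identical to mt-Nd4 over 876 of 1378 bases, both on chromosome 1, held 0. Among nuclear members, Ndufs5 alone had a copy with over 5% of the counts of both, BC002163 on chromosome 16, with 40.68%.

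**Figure D1:**
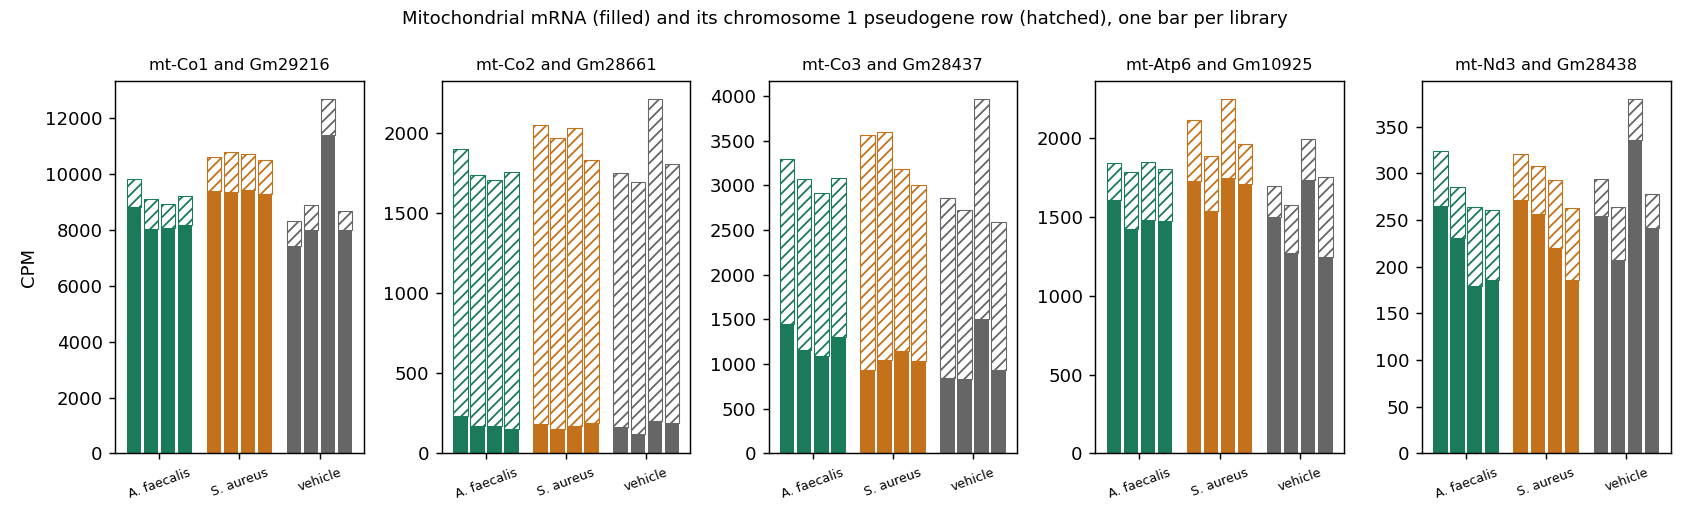
Level in CPM of 5 mitochondrial mRNAs (filled part of each bar) and of the near-identical pseudogene on chromosome 1 that shares reads with each (hatched part, stacked), 1 bar per library, with 4 A. faecalis, 4 S. aureus and 4 vehicle libraries in each panel. The hatched part makes up most of the bar for mt-Co2 (90.56% of the counts of both) and mt-Co3 (64.66%) and the smaller part for mt-Co1, mt-Atp6 and mt-Nd3.

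The mean sums of the 2 classes lay on opposite sides of vehicle with S. aureus. Summed over the 13 mitochondrial mRNAs, S. aureus libraries had 19799, 18229, 19895 and 18936 CPM, against 15910, 15566, 21839 and 16775 CPM in vehicle libraries. Summed over the 87 nuclear mRNAs, S. aureus libraries had 4854, 4495, 4435 and 4342 CPM, against 4825, 4871, 6029 and 4903 CPM in vehicle wounds. Both pairs of sums overlapped. The ratio of the mitochondrial to the nuclear sum did not: it was 4.08, 4.06, 4.49 and 4.36 in the S. aureus libraries and 3.30, 3.20, 3.62 and 3.42 in the vehicle libraries. Vehicle replicate 3, which was high in both sums, had the highest ratio of the vehicle libraries and lay below every S. aureus library.

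With A. faecalis, the mitochondrial sums were 18781, 17107, 17368 and 17036 CPM and the nuclear sums 4725, 5148, 4676 and 4542 CPM. The ratios of 3.98, 3.32, 3.71 and 3.75 overlapped those of the vehicle libraries and lay below all 4 S. aureus libraries. Without mt-Co1, the mitochondrial member with the most counts, the ratios were 2.11, 1.76, 1.99 and 1.95 with A. faecalis, 2.15, 1.97, 2.36 and 2.22 with S. aureus and 1.76, 1.56, 1.73 and 1.79 with vehicle. S. aureus and vehicle were still apart, and A. faecalis then overlapped both. With the pseudogene copies added to their members, the ratios were 4.98, 4.27, 4.70 and 4.80 with A. faecalis, 5.33, 5.42, 5.76 and 5.52 with S. aureus and 4.27, 4.15, 4.62 and 4.33 with vehicle. The groups, though not every library, lay in the same order as without the copies. These sums and ratios are descriptions of the libraries and carry no test.

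**Figure D2:**
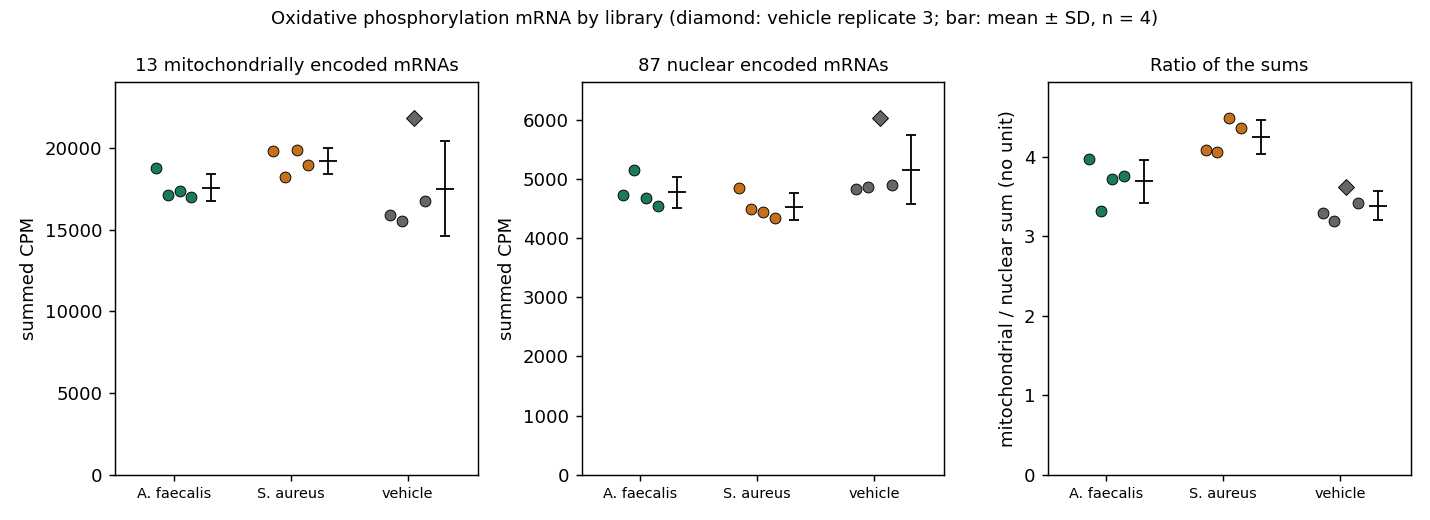
Summed level in CPM of the 13 mitochondrially encoded mRNAs (left) and of the 87 nuclear encoded mRNAs (middle), and the ratio of the sums with no unit (right), by group. Points are libraries, the diamond is vehicle replicate 3 and bars are mean ± SD of 4 libraries. The ratio lies between 4.06 and 4.49 in S. aureus libraries, above all A. faecalis (3.32 to 3.98) and all vehicle libraries (3.20 to 3.62).

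The comparison of S. aureus with vehicle set diabetic wounds given a skin pathogen against wounds given the vehicle with glycerol. In it, 5 nuclear subunits of complex I and the muscle isoform Cox7a1 fell, and the mitochondrial mRNA mt-Atp8 rose. These calls were made by edgeR's quasi-likelihood test at an adjusted p under 0.05 (Benjamini-Hochberg, over the 18218 genes tested). All 13 mitochondrial and 86 of the 87 nuclear members were tested; Cox7b2, a testis isoform at 0 to 0.15 CPM, was too low. The 6 nuclear members that fell were 6 of 86, where 2.97% of all genes tested were called lower, and the 1 mitochondrial member that rose was 1 of 13, where 3.87% of all genes were called higher. No nuclear member rose and no mitochondrial member fell.

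Ndufs8 and Ndufs7 are core subunits of complex I that hold iron-sulfur clusters on the way to ubiquinone. Ndufs8 had 4.62, 5.51, 4.70 and 5.68 CPM in S. aureus wounds and 7.25, 8.41, 7.37 and 7.38 CPM in vehicle wounds. Every S. aureus library lay below every vehicle library. The log2 fold change was -0.57 (SE 0.11, edgeR adjusted p = 0.0154). Ndufs7 had 25.8, 26.2, 22.7 and 22.8 CPM in S. aureus wounds and 30.3, 29.8, 40.7 and 29.9 CPM in vehicle wounds, where vehicle replicate 3 was far above the others. Its log2 fold change was -0.42 (SE 0.11, edgeR adjusted p = 0.0398).

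The other 3 are accessory subunits of the membrane arm of complex I. Ndufb3 had 13.9, 12.1, 13.2 and 12.3 CPM in S. aureus wounds and 18, 16.1, 27.7 and 21.0 CPM in vehicle wounds, a log2 fold change of -0.69 (SE 0.15, edgeR adjusted p = 0.0246). The groups did not overlap, although the vehicle libraries were themselves spread widely. Ndufc2 was more even, at 31.1, 28.1, 28.2 and 28.8 CPM in S. aureus wounds and 34.3, 36.7, 37.7 and 37.1 CPM in vehicle wounds. Its log2 fold change was -0.33 (SE 0.07, edgeR adjusted p = 0.0227). Ndufs5 had 12.3, 10.8, 11.6 and 10.7 CPM in S. aureus wounds and 15.6, 14.2, 15.9 and 13.3 CPM in vehicle wounds, without overlap, a log2 fold change of -0.38 (SE 0.10, edgeR adjusted p = 0.0411); with its pseudogene copy added, the adjusted p was 0.0379.

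Cox7a1 is the subunit 7a isoform of heart and skeletal muscle, also found in brown fat, and was low in these libraries. It had 1.23, 1.71, 1.12 and 1.1 CPM in S. aureus wounds and 2.20, 1.93, 2.81 and 2.04 CPM in vehicle wounds, without overlap. The log2 fold change was -0.80 (SE 0.18, edgeR adjusted p = 0.029). Markers of the tissues that use it lay mostly on the same side. Of 13 skeletal muscle markers 12 had log2 fold changes below 0 with S. aureus and 1, the oxygen store myoglobin (Mb), fell, while the summed muscle level was 1117 to 1275 CPM in S. aureus wounds and 948 to 1694 CPM in vehicle wounds. All 6 brown or beige fat markers were below 0, 1 of them (Ppara) called, and their sum was 16.1 to 34.6 CPM in S. aureus wounds and 35.6 to 85.1 CPM in vehicle wounds. Of all genes tested, 2.97% were called lower. Without vehicle replicate 3, 10 of the 13 muscle markers and all 6 brown or beige fat markers were below 0, with medians of -0.26 and -0.63. The part of these tissues in the Cox7a1 result was not tested.

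mt-Atp8 encodes a small membrane subunit of ATP synthase and lies at the start of an mRNA that it shares with mt-Atp6, whose reading frame overlaps its own. It had 305, 256, 348 and 297 CPM in S. aureus wounds and 222, 202, 213 and 251 CPM in vehicle wounds. The lowest S. aureus library lay just above the highest vehicle library, and 7.56% of all genes were higher without overlap in this way. The log2 fold change was 0.44 (SE 0.10, edgeR adjusted p = 0.0302). Its partner mt-Atp6 had 1729, 1539, 1751 and 1710 CPM in S. aureus wounds and 1502, 1274, 1739 and 1245 CPM in vehicle wounds, a log2 fold change of 0.22 that did not pass (adjusted p = 0.234). As the 2 genes lie on 1 RNA, how their reads were divided bears on both values; their sum was 2034, 1795, 2099 and 2007 CPM in S. aureus wounds and 1724, 1476, 1952 and 1495 CPM in vehicle wounds, and the groups overlapped.

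Leaving out 1 library ended several of these calls, without turning any direction. Ndufs8 lost its call without S. aureus replicate 3 (adjusted p = 0.0585), Ndufc2 and Ndufb3 each without S. aureus replicate 2, 3 or 4 (adjusted p = 0.0615 to 0.0782 and 0.0666 to 0.0773), mt-Atp8 without S. aureus replicate 3 or 4 or vehicle replicate 1 or 2 (0.0551 to 0.0965), and Cox7a1 without S. aureus replicate 1, 3 or 4 or vehicle replicate 1 or 3 (0.0532 to 0.0966). Ndufs7 was called in only 3 of the 12 such fits (without vehicle replicate 2, 3 or 4) and Ndufs5 in 2 (without A. faecalis replicate 2 or vehicle replicate 4), with adjusted p-values of up to 0.122 and 0.114.

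**Figure D3:**
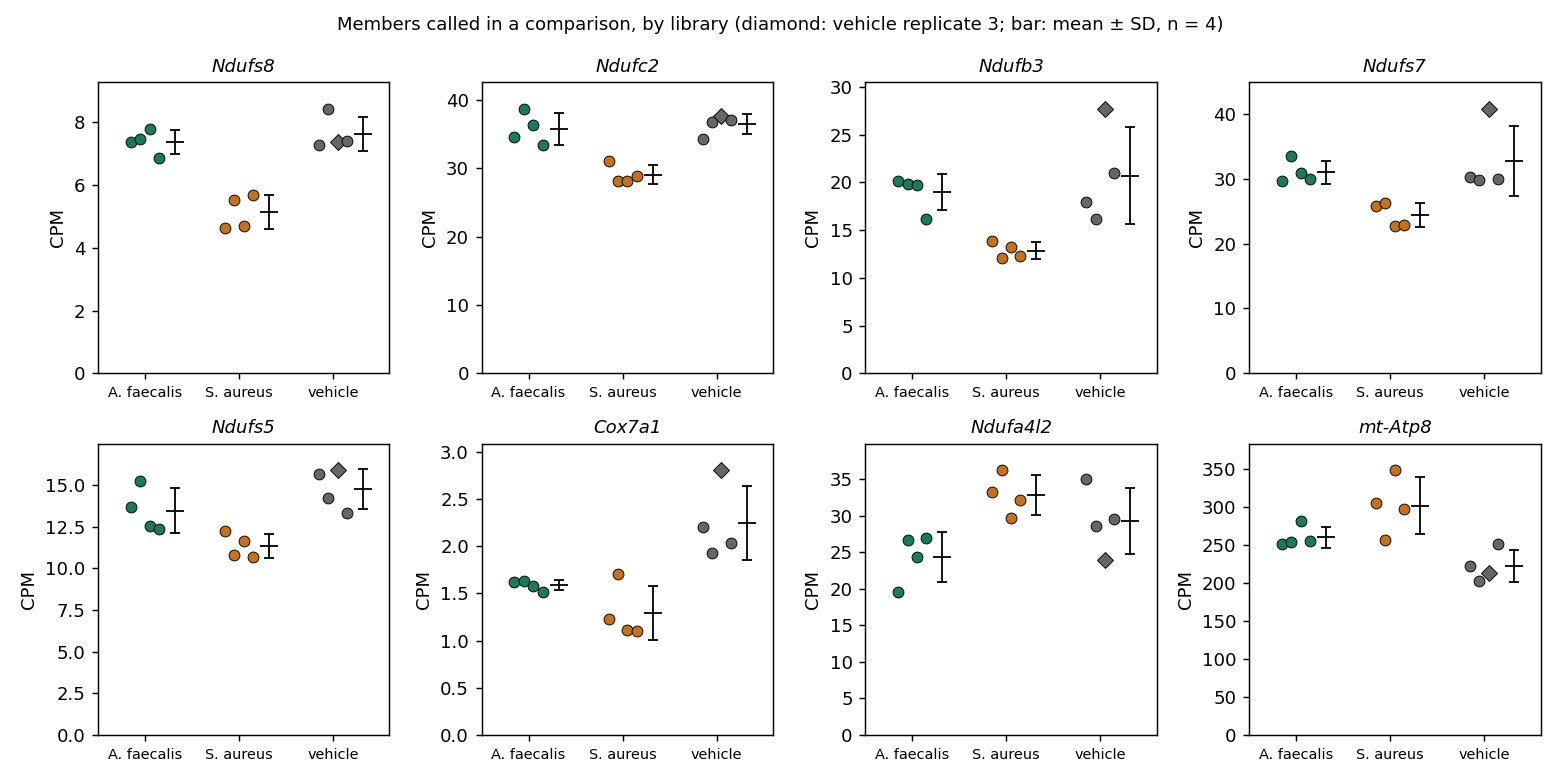
Level in CPM, on axes that start at 0, of the 8 members called in a comparison, by group. Points are libraries, the diamond is vehicle replicate 3 and bars are mean ± SD of 4 libraries. S. aureus libraries lie below all others for Ndufs8, Ndufc2, Ndufb3, Ndufs7 and Ndufs5, while for mt-Atp8 they reach 348 CPM, above all vehicle libraries.

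Below the threshold, most nuclear members also had negative log2 fold changes with S. aureus. Of the 86 tested, 80 were below 0 (93%, against 54.7% of all genes tested), with a median of -0.22, against -0.04 over all genes. At an unadjusted p under 0.05, 39 were lower and 0 higher, where 14.8% of all genes were lower. In 24 members the S. aureus libraries lay wholly below the vehicle libraries, where 7.57% of all genes did so. The most abundant nuclear members of complexes III, IV and V were among those below 0. Uqcrc1, a core protein of complex III, averaged 109 ± 7.45 CPM in S. aureus wounds and 134 ± 21.7 CPM in vehicle wounds (SD, n = 4 each). Cox4i1, the common regulatory subunit of complex IV, averaged 170 ± 11.9 CPM in S. aureus wounds and 202 ± 22.5 CPM in vehicle wounds (log2 fold change -0.25, edgeR adjusted p = 0.123). Atp5b, the catalytic beta subunit of ATP synthase, averaged 526 ± 45.1 CPM in S. aureus wounds and 604 ± 115 CPM in vehicle wounds (log2 fold change -0.20, adjusted p = 0.329).

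Complex I held the larger share of the lower members. All 36 of its nuclear subunits were below 0, 26 of them at an unadjusted p under 0.05 and 18 without overlap between the groups, and the median log2 fold change was -0.26. Of all genes tested, 54.7% were below 0, 14.8% were lower at that p and 7.57% were lower without overlap. Of the 7 core subunits 6 were lower at an unadjusted p under 0.05, and of the 29 accessory subunits 20. Ndufb7 (18.5 ± 0.626 CPM in S. aureus wounds, 23.9 ± 2.80 CPM in vehicle wounds; log2 fold change -0.36), Ndufs3 (29.8 ± 1.94 and 36.5 ± 4.43 CPM; -0.29) and Ndufs1 (75.7 ± 2.72 and 86.3 ± 2.85 CPM; -0.19) came closest to the threshold, with edgeR adjusted p-values of 0.052, 0.0621 and 0.0642. At the other end, Ndufv3 had a log2 fold change of -0.00 (adjusted p = 0.983). Ndufa9, at 1.85 ± 1.84 CPM in S. aureus wounds and 3.18 ± 0.718 CPM in vehicle wounds, was too uneven between libraries for its log2 fold change of -0.79 to pass (adjusted p = 0.593). Its level is uncertain, since only annotated pseudogenes were searched for shared reads.

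The other complexes were lower to a smaller degree. In complex III all 8 nuclear members were below 0 with a median log2 fold change of -0.23, and 4 had an unadjusted p under 0.05 (Uqcrc1, Uqcrc2, Uqcrb and Uqcr11). In complex V all 15 subunits were below 0 with a median of -0.17, and 3 had an unadjusted p under 0.05 (Atp5c1, Atp5g3 and Atp5j). In complex IV 9 of 11 common subunits were below 0 with a median of -0.12, and 3 had an unadjusted p under 0.05 (Cox4i1, Cox5a and Cox6c). Those counts were 50% of complex III, 20% of complex V and 27.3% of complex IV, where 14.8% of all genes were lower. Of all genes tested, 54.7% were below 0. With all libraries, edgeR called no common subunit of complexes III, IV or V. Uqcrb, a small subunit of complex III, was called lower without S. aureus replicate 1 (-0.35, adjusted p = 0.0246) and by DESeq2 with all libraries (-0.27, adjusted p = 0.0385). Whether complex I differed from the other complexes was not tested.

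The mitochondrial mRNAs were on the other side of 0. Of the 13, 11 had positive log2 fold changes with S. aureus, where 8260 of the 18218 genes tested had, and the median of the 13 was 0.11. At an unadjusted p under 0.05, 4 of the 13 were higher, where 12.3% of all genes were. That count was 1 with upper-quartile scaling and in a fit of only these 2 groups, and ran from 1 to 7 when 1 library was left out, with 7 without vehicle replicate 3. mt-Cytb, the cytochrome b of complex III, had 1376, 1260, 1375 and 1274 CPM in S. aureus wounds and 1091, 941, 1375 and 1021 CPM in vehicle wounds. The overlap lay with vehicle replicate 3 alone, and the log2 fold change was 0.26 (edgeR adjusted p = 0.184). For mt-Nd4 and mt-Nd5, membrane subunits of complex I, it was 0.25 (adjusted p = 0.164) and 0.22 (adjusted p = 0.17). mt-Co1 was at 9376, 9359, 9422 and 9284 CPM in S. aureus wounds, a narrow range, and at 7414, 7989, 11389 and 7978 CPM in vehicle wounds (log2 fold change 0.11, adjusted p = 0.653).

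The remaining mitochondrial mRNAs differed little or unevenly. mt-Nd4l, mt-Nd2, mt-Co2, mt-Nd1 and mt-Co3 had log2 fold changes of 0.26, 0.11, 0.06, 0.02 and 0.02, and mt-Nd6 and mt-Nd3 of -0.04 and -0.15; adjusted p-values were 0.215 for mt-Nd4l and 0.613 or more for the others. For mt-Co3 the sign depended on the scaling, being 0.02 by TMM and -0.00 by upper-quartile scaling. With the copies added, the log2 fold change of mt-Co3 was 0.13 (adjusted p = 0.566) and that of mt-Nd3 -0.04 (adjusted p = 0.876). mt-Co3 was then at 3565, 3603, 3179 and 3003 CPM in S. aureus wounds and 2864, 2730, 3970 and 2594 CPM in vehicle wounds, and only vehicle replicate 3 lay within or above the S. aureus range.

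Without vehicle replicate 3 the medians of both classes were higher. The median log2 fold change with S. aureus was then 0.27 for the mitochondrial members, against 0.11 with it, and -0.13 for the nuclear members, against -0.22 with it, with 12 of 13 mitochondrial members above 0, 71 of 86 nuclear members below 0 and 34 of 36 nuclear complex I subunits below 0. At an unadjusted p under 0.05, 24 nuclear members were lower, as many as without S. aureus replicate 4. Of the named members, Atp5b was then at -0.04, Cox4i1 at -0.16, Ndufs3 at -0.19 and Cox8b at -0.51, while mt-Atp6 was at 0.35, mt-Co1 at 0.28, mt-Co3 at 0.27, mt-Nd2 at 0.20, mt-Co2 at 0.18, mt-Nd1 at 0.11 and mt-Nd3 at 0.01; none of these was called. edgeR called 2 mitochondrial members higher, mt-Atp8 and mt-Cytb (0.39, adjusted p = 0.0381), and 4 nuclear members lower, Ndufb3, Ndufc2, Ndufs7 and Ndufs8.

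**Figure D4:**
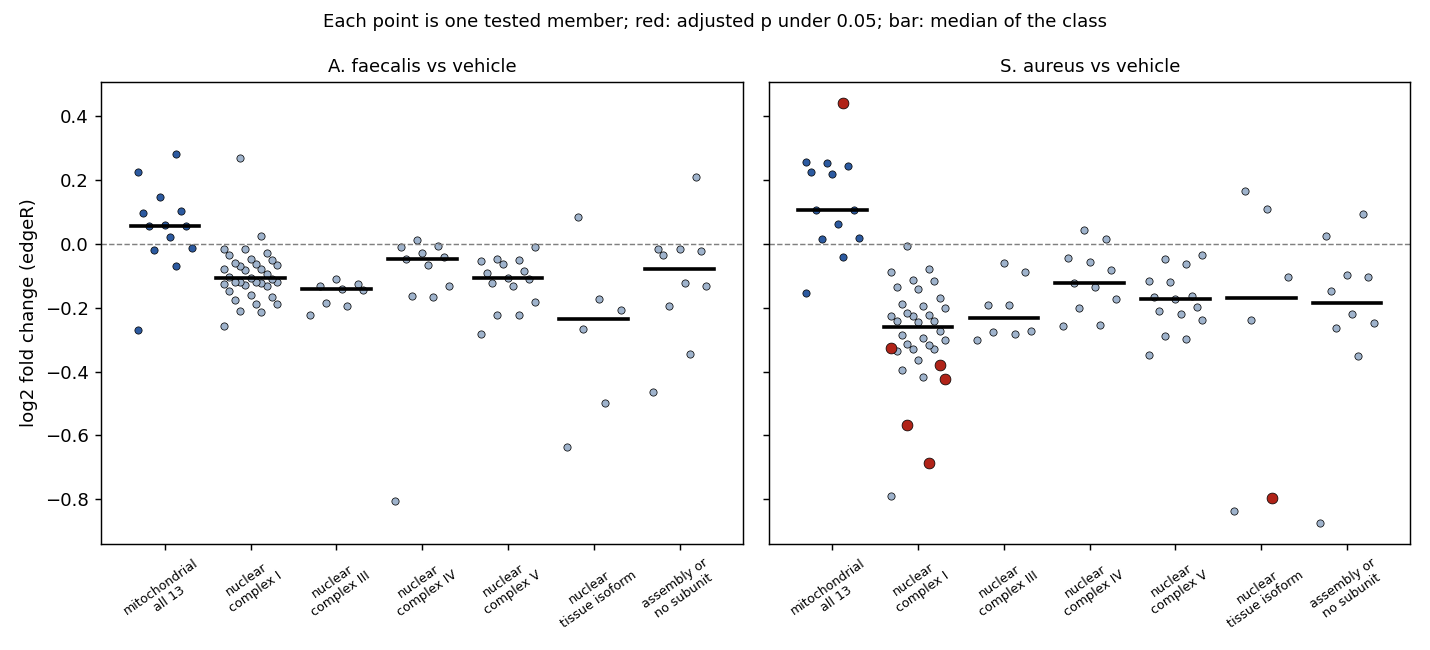
Log2 fold change by edgeR of each tested member with A. faecalis against vehicle (left) and with S. aureus against vehicle (right), by class. Red points passed an adjusted p of 0.05 and bars are class medians. With S. aureus the median is 0.11 for the mitochondrial members and -0.26 for nuclear complex I subunits; both panels share the 4 vehicle libraries.

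The promoters of the 3 members called in both comparisons that involve S. aureus are shown, since nuclear respiratory genes are known for shared binding sites of nuclear respiratory factor 1 (NRF1), ETS-family factors such as GABPA, and YY1. The sequences run from 250 bases before to 50 bases after the RefSeq start (build GRCm38.p6), and capitals mark CCAAT (or ATTGG on the other strand), the site of the factor NF-Y, and the ETS letters CCGGAAG (or CTTCCGG). Ndufs8 lies at chr19:3912725-3913024 on the minus strand, Ndufc2 at chr7:97399753-97400052 on the plus strand and Ndufb3 at chr1:58586147-58586446 on the plus strand.
Ndufs8: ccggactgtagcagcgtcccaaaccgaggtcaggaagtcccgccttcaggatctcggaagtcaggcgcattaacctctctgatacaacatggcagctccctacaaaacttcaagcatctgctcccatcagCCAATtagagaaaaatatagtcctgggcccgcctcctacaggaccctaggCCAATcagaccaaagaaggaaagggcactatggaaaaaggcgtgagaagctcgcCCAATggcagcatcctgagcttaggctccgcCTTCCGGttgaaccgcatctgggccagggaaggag
Ndufc2: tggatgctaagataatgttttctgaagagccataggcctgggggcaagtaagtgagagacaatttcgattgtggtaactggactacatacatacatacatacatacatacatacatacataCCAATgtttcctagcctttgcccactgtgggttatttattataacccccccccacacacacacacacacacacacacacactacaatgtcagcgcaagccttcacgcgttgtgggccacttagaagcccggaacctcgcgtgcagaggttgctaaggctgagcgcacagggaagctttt
Ndufb3: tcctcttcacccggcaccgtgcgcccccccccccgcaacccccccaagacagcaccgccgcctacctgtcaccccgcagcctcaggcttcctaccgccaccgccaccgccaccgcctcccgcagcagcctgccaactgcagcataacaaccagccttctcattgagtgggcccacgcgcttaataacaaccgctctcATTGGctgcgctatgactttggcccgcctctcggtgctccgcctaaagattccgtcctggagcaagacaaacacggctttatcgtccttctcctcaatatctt
Ndufs8 had 3 CCAAT letters and 1 ETS match, and Ndufc2 and Ndufb3 had 1 CCAAT each. None of the 3 windows held the letters searched for NRF1 (GCGCATGC), YY1 (AAGATGGC) or estrogen-related receptors (AAGGTCA).

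RefSeq promoter windows were found for 73 of the 87 nuclear members, 3 of them under another name, and both strands were searched. Of their 79 windows 13.9% held the NRF1 letters, 19% the ETS letters and 15.2% the YY1 letters, against 2.71%, 8.86% and 2.75% of all 32851 windows of the same length. The estrogen-related receptor letters stood in 8.86% and 4.72%, and CCAAT, added after the sequences had been seen, in 41.8% and 37.4%. In the 34 windows of nuclear complex I subunits the shares were 8.82% for NRF1, 11.8% for ETS and 20.6% for YY1. They were 8.82% for estrogen-related receptors and 29.4% for CCAAT, the last below the 37.4% of all windows. A match describes letters in a window and is not a bound site.

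The comparison of A. faecalis with vehicle set wounds given a Gram-negative wound bacterium against the same vehicle with glycerol. edgeR called none of the 99 tested members, as did limma-voom and DESeq2, and it called 2 of all 18218 genes (0.0110%). At an unadjusted p under 0.05, 1 mitochondrial member of 13 was higher (mt-Atp8), where 3.18% of all genes were, and 6 nuclear members were lower (Ndufaf2, Cox7a1, Uqcrh, Ndufb11, Cox8b and Ndufa2), where 4.50% of all genes were lower. The nuclear count was 2 with DESeq2 size factors, by limma-voom and in a fit of only these 2 groups, and ran from 2 to 10 when 1 library was left out, with 10 without A. faecalis replicate 2. The 3 nuclear members with the smallest p were Ndufaf2, an assembly factor of complex I (2.22 ± 0.315 CPM in A. faecalis wounds, 3.06 ± 0.450 CPM in vehicle wounds, log2 fold change -0.46, adjusted p = 0.547), Cox7a1 (1.62, 1.64, 1.58 and 1.52 CPM in A. faecalis wounds; log2 fold change -0.50, adjusted p = 0.577) and Uqcrh, the hinge protein of complex III (log2 fold change -0.18, adjusted p = 0.639).

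Small negative values ran through the nuclear members here as well. Of 86, 81 had a log2 fold change below 0 with A. faecalis (94.2%, against 56.2% of all genes), with a median of -0.12, against -0.03 over all genes. These values share the vehicle libraries with the S. aureus comparison and rest on vehicle replicate 3: without it 53 of 86 were below 0 and the median was -0.03. Only Cox7a1, Ndufaf2 and Ndufs1 had A. faecalis libraries wholly below the vehicle libraries, where 2.56% of all genes did. The 5 complex I subunits that fell with S. aureus stood near their vehicle level with A. faecalis: Ndufs8 at 7.35, 7.46, 7.76 and 6.85 CPM (log2 fold change -0.05), Ndufc2 at 34.5, 38.7, 36.3 and 33.4 CPM (-0.03), Ndufb3 at 20.2, 19.8, 19.7 and 16.2 CPM (-0.13), Ndufs7 at 29.6, 33.4, 30.8 and 30.0 CPM (-0.08) and Ndufs5 at 13.7, 15.3, 12.6 and 12.4 CPM (-0.13). Their A. faecalis and vehicle libraries overlapped.

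Of the mitochondrial mRNAs 9 of 13 were above 0 with A. faecalis, with a median log2 fold change of 0.06. Of the 18218 genes tested, 7974 were above 0. mt-Atp8 had 250, 254, 280.5 and 254 CPM in A. faecalis wounds, of which 3 lay close to the highest vehicle library of 251 CPM (log2 fold change 0.23, edgeR adjusted p = 0.645). mt-Co3 had a log2 fold change of 0.28, from 1449, 1159, 1090 and 1307 CPM in A. faecalis wounds and 846, 838, 1504 and 930 CPM in vehicle wounds (adjusted p = 0.716), but 0.02 with the copies added (adjusted p = 0.979) and 0.54 without vehicle replicate 3 (adjusted p = 0.298). mt-Nd3 was at -0.27 (216 ± 40.3 CPM in A. faecalis wounds, 260 ± 54.3 CPM in vehicle wounds, adjusted p = 0.718), and at -0.10 with the copies added. mt-Co2 was at 0.10 as deposited (adjusted p = 0.892) and at -0.07 with the copies (adjusted p = 0.866). Without vehicle replicate 3, 11 of 13 were above 0 with a median of 0.14.

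The comparison of A. faecalis with S. aureus set both bacteria side by side. Relative to S. aureus, Ndufs8, Ndufc2 and Ndufb3 rose with A. faecalis and Ndufa4l2 fell, which makes 3 of 86 nuclear members called higher and 1 lower, where 5.06% and 7.62% of all genes were. No mitochondrial member was called. The log2 fold change was 0.52 for Ndufs8 (SE 0.11, edgeR adjusted p = 0.00946), 0.30 for Ndufc2 (SE 0.07, adjusted p = 0.0166) and 0.56 for Ndufb3 (SE 0.15, adjusted p = 0.0312). In all 3, every A. faecalis library lay above every S. aureus library. This comparison uses the same S. aureus libraries as the one with vehicle, so the calls of these genes in both are not independent.

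Ndufa4l2 is a paralog of Ndufa4 known to be induced by hypoxia-inducible factor 1. It had 19.5, 26.6, 24.3 and 26.9 CPM in A. faecalis wounds and 33.3, 36.2, 29.7 and 32.1 CPM in S. aureus wounds, without overlap, a log2 fold change of -0.43 (SE 0.13, edgeR adjusted p = 0.0478). The vehicle libraries, at 35, 28.6, 23.9 and 29.6 CPM, spanned both. The call was lost in 9 of the 12 fits that leave out 1 library (adjusted p = 0.0576 to 0.118) and kept only without vehicle replicate 1, 3 or 4. Ndufb3 lost its call without any of A. faecalis replicates 1, 2 and 3 or S. aureus replicates 2, 3 and 4 (adjusted p = 0.0678 to 0.0832), Ndufc2 without A. faecalis replicate 3 or S. aureus replicate 3 (0.0504 and 0.0517), and Ndufs8 kept it throughout.

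Below the threshold, 70 of 86 nuclear members were above 0 with A. faecalis relative to S. aureus, with a median log2 fold change of 0.11, against 0.02 over all genes. Of the 18218 genes tested, 9598 were above 0 and 8620 below. At an unadjusted p under 0.05, 11 were higher, where 13% of all genes were, and 13 were higher without overlap, where 11.5% of all genes were. Of those 11, 10 were complex I subunits, and 34 of the 36 complex I subunits were above 0. The mitochondrial members had 9 of 13 below 0 with a median of -0.11. mt-Cytb, at 1138, 1094, 1141 and 1000 CPM in A. faecalis wounds and 1376, 1260, 1375 and 1274 CPM in S. aureus wounds, did not overlap (log2 fold change -0.27, adjusted p = 0.148), nor did mt-Co1 (8831, 8044, 8070 and 8180 CPM in A. faecalis wounds; log2 fold change -0.18, adjusted p = 0.423); 11.8% of all genes were lower without overlap. mt-Co3 had the highest log2 fold change of the 13, 0.27 (adjusted p = 0.37), and its sign turned to -0.11 with the pseudogene copies added. The log2 fold change of mt-Co2 was 0.04 as deposited and -0.15 with the copies, and that of mt-Nd3 was -0.11 and -0.06. Without vehicle replicate 3, which is in neither of these groups but in the same fit, edgeR called 6 nuclear members higher (Ndufa10, Ndufs3 and Ndufs7 in addition) and mt-Cytb lower (-0.28, adjusted p = 0.0448).

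Most tissue-restricted isoforms were low beside their common partners in every group. Cox8b, the subunit 8 form of muscle and brown fat, had 2.66, 3.76, 2.46 and 2.09 CPM in S. aureus wounds, 4.16, 3.54, 2.79 and 2.11 CPM in A. faecalis wounds and 3.80, 3.52, 7.78 and 4.53 CPM in vehicle wounds. Vehicle replicate 3 was the highest, and neither comparison passed (log2 fold change -0.84, adjusted p = 0.0956 with S. aureus; -0.64, adjusted p = 0.645 with A. faecalis). Without vehicle replicate 3 these were -0.51 and -0.31. Its common partner Cox8a averaged 99.1 ± 4.62 CPM in S. aureus wounds and 103 ± 17.2 CPM in vehicle wounds. Cox6a2, the muscle form of subunit 6a, averaged 5.79 ± 1.04 CPM in A. faecalis wounds, 5.66 ± 0.333 CPM in S. aureus wounds and 6.68 ± 1.01 CPM in vehicle wounds, and the hypoxia-responsive form Cox4i2 averaged 2.18 ± 0.0912, 1.92 ± 0.349 and 2.06 ± 0.297 CPM. The testis form Cox6b2 averaged 0.776 ± 0.153, 0.940 ± 0.207 and 0.873 ± 0.145 CPM in the same order of groups. Cox6a1, Cox6b1 and Cox7a2, the common partners, had log2 fold changes of -0.08, -0.17 and -0.04 with S. aureus, and adjusted p-values of 0.25 or more.

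Ndufa4 itself was uneven within every group, at 2.21, 7.12, 1.20 and 5.55 CPM in A. faecalis wounds, 10.4, 12, 4.72 and 1.88 CPM in S. aureus wounds and 8.21, 9.67, 3.47 and 6.79 CPM in vehicle wounds. Per kb of transcript its mean was 6.59 CPM in A. faecalis wounds, 11.9 CPM in S. aureus wounds and 11.5 CPM in vehicle wounds, below that of Ndufa4l2 in each group (26.1, 35.2 and 31.3 CPM). By comparison, Cox4i1 stayed between 156 and 235 CPM over all 12 libraries. No difference in Ndufa4 passed (adjusted p = 0.399 to 0.973). Only annotated pseudogenes were searched for shared reads, so the levels of Ndufa4 and of Ndufa9, both low and uneven, are uncertain.

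Genes that work beside the respiratory chain were counted in lists. Of all genes tested, 2.97% were called lower and 3.87% higher with S. aureus against vehicle. At an unadjusted p under 0.05, 14.8% were lower and 12.3% higher. With A. faecalis relative to S. aureus, 5.06% were called higher and 7.62% lower. Of 8 complex II genes none was called with S. aureus against vehicle by edgeR, 4 were lower at an unadjusted p under 0.05 and the median log2 fold change was -0.28; Sdha, the flavoprotein, averaged 136 ± 7.95 CPM in S. aureus wounds (log2 fold change -0.30, adjusted p = 0.0749). Between A. faecalis and S. aureus, 2 complex II genes rose, Sdhb, the iron-sulfur subunit (log2 fold change 0.32, adjusted p = 0.0364), and the assembly factor Sdhaf1 (0.47, adjusted p = 0.0312). Of 23 genes for cytochrome c and for assembly of complexes III and IV, 1 fell with S. aureus against vehicle, Cox20, a factor for the maturation of mt-Co2 protein, at 3.72 ± 0.450 CPM in S. aureus wounds and 5.38 ± 0.784 CPM in vehicle wounds (log2 fold change -0.53, adjusted p = 0.0376). Its call with S. aureus against vehicle was lost without vehicle replicate 3. Cox20 also rose with A. faecalis relative to S. aureus (0.45, adjusted p = 0.0465). None of the 27 genes of mitochondrial transcription, RNA stability and DNA replication was called, 3 were lower and 1 higher at an unadjusted p under 0.05, and the median was -0.07.

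Among 12 regulators of mitochondrial biogenesis, 2 fell with S. aureus against vehicle, where 2.97% of all genes were called lower. Ppargc1b, a coactivator of respiratory genes, had 8.85, 8.22, 6.60 and 6.36 CPM in S. aureus wounds and 11.7, 10.4, 16.2 and 10.7 CPM in vehicle wounds, without overlap (log2 fold change -0.71, SE 0.17, edgeR adjusted p = 0.0319). With A. faecalis it was at 10.3, 12, 14.2 and 11.3 CPM, within the vehicle range but for 1 library, and above all S. aureus libraries (log2 fold change against S. aureus 0.67, adjusted p = 0.0238). Ppara, a fatty acid receptor that induces fat burning, averaged 1.47 ± 0.602 CPM in S. aureus wounds and 4.69 ± 2.44 CPM in vehicle wounds (log2 fold change -1.67, adjusted p = 0.0398). Without vehicle replicate 3, edgeR called neither Ppargc1b nor Ppara with S. aureus against vehicle.

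The pathways that feed the chain had negative and glycolysis had positive medians with S. aureus. The size of the negative medians rested on vehicle replicate 3, and that of glycolysis much less so. Of all genes tested, 2.97% were called lower and 3.87% higher, and 14.8% were lower at an unadjusted p under 0.05. Of 19 genes of the citric acid cycle 16 were below 0 against vehicle, 9 at an unadjusted p under 0.05 and none called, with a median log2 fold change of -0.28. Of 16 genes of fatty acid beta-oxidation 15 were below 0, 10 at an unadjusted p under 0.05, with a median of -0.43, and 1 fell, Etfb, which hands electrons from acyl-CoA dehydrogenases to the chain (26.4 ± 3.67 CPM in S. aureus wounds, 41.8 ± 7.62 CPM in vehicle wounds, log2 fold change -0.66, adjusted p = 0.0244). Of 17 genes of glycolysis and lactate 16 were above 0 with a median of 0.44, and 1 rose, Gpi1, the isomerase of the second step (724 ± 195 CPM in S. aureus wounds, 326 ± 123 CPM in vehicle wounds, log2 fold change 1.15, adjusted p = 0.0325). Gpi1 fell with A. faecalis relative to S. aureus (-1.03, adjusted p = 0.0312). Its call with S. aureus against vehicle was lost without vehicle replicate 3. Without vehicle replicate 3 the medians were -0.06 for the citric acid cycle (6 genes at an unadjusted p under 0.05), -0.13 for beta-oxidation (3 genes) and 0.36 for glycolysis. Summed over its genes, beta-oxidation was at 1005 to 1192 CPM in S. aureus wounds and 1920 CPM in vehicle replicate 3, with the other vehicle libraries at 1134 to 1270 CPM; the citric acid cycle was at 1469 to 1658 CPM in S. aureus wounds and 2507 CPM in vehicle replicate 3, with the others at 1580 to 1664 CPM. None of these 3 lists had a called gene with A. faecalis against vehicle, and their medians there were -0.13, -0.23 and 0.09; without vehicle replicate 3 they lay on the other side of 0, at 0.05, 0.05 and -0.03.

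Ribosomal proteins give a scale for a small shift over many genes. Of 77 mitochondrial ribosomal proteins 63 were below 0 with S. aureus against vehicle, with a median of -0.12. Of the 77, 3 were called lower, close to the share of 2.97% over all genes tested. These were Mrpl20, Mrpl27 and Mrpl48, with log2 fold changes of -0.30, -0.35 and -0.25 (edgeR adjusted p = 0.0424, 0.0457 and 0.0445). Without vehicle replicate 3, edgeR called none of Mrpl20, Mrpl27 and Mrpl48 with S. aureus against vehicle, and the median of the mitochondrial ribosomal proteins was -0.03. Of 88 cytosolic ribosomal proteins 62 were above 0, with a median of 0.05, and none was called by edgeR, 2 being higher and 1 lower at an unadjusted p under 0.05.

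Markers of other cell types also differed in level between the groups. Of all genes tested, 2.97% were called lower and 3.87% higher with S. aureus against vehicle. At an unadjusted p under 0.05, 14.8% were lower and 12.3% higher. All 12 adipocyte markers were below 0 with S. aureus against vehicle, 10 at an unadjusted p under 0.05 and none called. Their summed level was 2411 to 4452 CPM in S. aureus wounds, 4362 to 6606 CPM in A. faecalis wounds and 3908 to 16893 CPM in vehicle wounds. Without vehicle replicate 3, 11 of the 12 were below 0 and 3 had an unadjusted p under 0.05. The median log2 fold change was then -0.31, against -1.15 with it. Plin1 was at 0 in vehicle replicate 4; no other adipocyte marker was at 0 in any library. All 11 neutrophil markers were above 0, 8 at an unadjusted p under 0.05 and 1 (Camp) called, and their sum was 9939 to 15778 CPM in S. aureus wounds, 2134 to 4805 CPM in A. faecalis wounds and 802 to 9438 CPM in vehicle wounds. Of 10 monocyte and macrophage markers 9 were below 0 and 1 fell (Emr1), and of 8 basal keratinocyte markers 7 were below 0 and 1 fell (Krt15), with sums of 1484 to 2949 CPM in S. aureus wounds, 1522 to 1903 CPM in A. faecalis wounds and 1948 to 2879 CPM in vehicle wounds. Of 8 markers of differentiated epidermis 2 fell (Flg2 and Krt77), and of 7 endothelial markers 1 (Pecam1) rose. Of 7 fibroblast markers 4 were above 0 and 3 below, and 2 (Pdgfra and Pdgfrb) rose. The fibroblast sum was 19746 to 24838 CPM in S. aureus wounds and 18591 to 30253 CPM in vehicle wounds. Without vehicle replicate 3 the fibroblast median was -0.06, against 0.08 with it, and 1 fibroblast marker was called. None of 8 sebaceous gland markers was called, and 3 were lower at an unadjusted p under 0.05. With A. faecalis relative to S. aureus, 6 of the 11 neutrophil markers fell, where 7.62% of all genes did. In the same comparison 4 of the 10 monocyte and macrophage markers rose, where 5.06% of all genes did, and no adipocyte marker was called. The part of these cells in the lower nuclear and the higher mitochondrial values with S. aureus was not tested.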

How the data were processed

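RNA was sequenced from wounded skin of 12 mice, 4 per group on day 3. Skin was ground frozen, ribosomal RNA was depleted and a stranded kit for total RNA was used, per the labels' protocols. The deposited table holds estimated counts per gene (not whole numbers, unnormalized), which the authors made by kallisto (version 0.48.0) per the submitters' processing notes; these list DESeq2 1.34.0, R 4.1.3 and FastQC 0.12.1 too, with GRCm39 as the build. The way transcripts were summed to genes, and any use of strand, are not given in the sources used here, so mt-Nd6 and overlapping mitochondrial mRNAs are uncertain. The labels say nothing of separate cages, litters or extraction days.

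Of 29957 entries, 1 had no name; it held 0.00909% to 0.0151% of the counts and was left out. Estimated counts were rounded and tested with edgeR 4.0.16 in R 4.3.3 (robust quasi-likelihood, TMM scaling, filterByExpr with a minimum count of 10 and a minimum total of 15, all 12 libraries in 1 model, two-sided, Benjamini-Hochberg adjustment over 18218 genes), a procedure that was tested on simulated data. Replicates differed by chi-square values of 28.8 to 481 per degree of freedom, so none was a repeat of another. Copies were sought among GENCODE M21 pseudogenes, a GRCm38 annotation, so coordinates are of that build and not of the table's.

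Named genes were the 13 mitochondrial members; per comparison up to 6 called nuclear members at each end by log2 fold change if their mean reached 1 CPM, and the 3 nuclear members with the smallest p; the most abundant nuclear member of each complex (that of one complex is not reported here); tissue isoforms with their partners; and up to 3 called genes per related list. Other members are named for their counts at an unadjusted p, after their values were seen. The members, lists and tests were chosen with earlier results of these data known. Alternatives were other scalings (DESeq2 size factors, upper quartile, sizes without mitochondrial rows), other filters, DESeq2 1.42.0, limma-voom (limma 3.58.1), only the 2 groups compared, the replicate number as a block, a threshold of 0.1, each library left out, and, chosen after seeing the data, pseudogene counts added to their members. The mitochondrial ribosomal RNA list found 0 of its 2 symbols and was not used.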

Additional observations from a re-analysis of the deposited data

Results flagged for a closer look

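In 38 quantities (members named above and the class sums) the 4 libraries of each group were examined for a single library far from the rest, which gave 12 in 114 groups, where chance alone gives about 1 in 20 groups. The flags fell on vehicle replicate 3 in 5 cases, each high: 11389 CPM of mt-Co1 (7989 CPM in the nearest vehicle library), 1504 CPM of mt-Co3 (930 CPM), 40.7 CPM of Ndufs7 (30.3 CPM), 43.1 CPM of Ndufs3 (35.1 CPM) and 6029 CPM of the nuclear sum (4903 CPM).

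The other 7 were spread over several libraries. Among the A. faecalis libraries, mt-Atp8 was high in replicate 3 at 280.5 CPM (254 CPM in the nearest), Ndufaf2 was high in replicate 1 at 2.69 CPM (2.12 CPM) and Ndufb3 was low in replicate 4 at 16.2 CPM (19.7 CPM). In S. aureus replicate 2, Ndufb7 was low at 17.6 CPM (18.7 CPM). In the vehicle group, Ndufs8 was high in replicate 2 at 8.41 CPM (7.38 CPM), and replicate 4 was high for mt-Nd6 at 235 CPM (162 CPM) and for Cox6a2 at 8.18 CPM (6.38 CPM).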

How the results depend on the processing

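With S. aureus against vehicle, the 6 nuclear members called lower became 10 with upper-quartile scaling, 13 with DESeq2, 21 at a threshold of 0.1 and 0 in a fit of only these 2 groups, where Ndufs8 had an adjusted p of 0.0555; the mitochondrial count of 1 became 0 in that fit. Leaving out 1 library gave 0 to 6 nuclear members lower and 0 to 2 mitochondrial members higher. With A. faecalis against S. aureus, the 3 nuclear members called higher became 5 with upper-quartile scaling, 6 in a fit of only the 2 groups and 5 at a threshold of 0.1, and 1 to 6 without 1 library; the 1 called lower became 0 with upper-quartile scaling and without the filter, and 0 to 1 without 1 library, and the mitochondrial count of 0 became 0 to 1. With A. faecalis against vehicle no alternative called a member. The median of all genes moved by at most 0.03 (log2) under any scaling; for S. aureus against vehicle, upper-quartile scaling changed the split of all calls to 619 higher and 679 lower, against 705 and 541.

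The replicate numbers gave no clear pairing of the libraries. Once each group's mean had been taken off each gene, same-numbered libraries correlated at -0.21 to 0.182, and 3 of 12 pairs exceeded 0.1. Those 3 were A. faecalis with vehicle, at 0.182, 0.146 and 0.17 for replicates 2, 3 and 4. Only 3 of 12 libraries correlated best with their own number. With the replicate number as a block, 3 nuclear members were lower with S. aureus against vehicle, and with A. faecalis against S. aureus 0 were lower.

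Adding pseudogene copies kept the same members called and set the mean ratio of the mitochondrial to the nuclear sum at 4.69 with A. faecalis, 5.51 with S. aureus and 4.34 with vehicle; it turned mt-Co3 in A. faecalis against S. aureus to -0.11. mt-Co3 in S. aureus against vehicle turned to -0.0025 with upper-quartile scaling and ran from -0.049 to 0.27 without 1 library. In A. faecalis against vehicle, leaving out 1 library moved Ndufs8 between -0.058 and 0.022, Ndufc2 between -0.062 and 0.0028, Ndufb3 between -0.21 and 0.060 and Ndufs7 between -0.11 and 0.058. The cause of these shifts was not tested. On the log2 scale, the ratio of the sums differed from vehicle by 0.12 with A. faecalis and 0.33 with S. aureus; as the difference of the mean log2 CPM of the classes, which weights members equally, these were 0.19 and 0.39. On that scale S. aureus libraries (0.093 to 0.31) were still above all vehicle libraries (-0.34 to -0.086) and overlapped the A. faecalis libraries (-0.14 to 0.13). With 4 libraries a group, differences under about the spread between them, and some above it, could be missed. The smallest difference that could be detected was not estimated.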
